A study of Mus musculus with 12 samples.

Results

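The genes described here are 9 genes of lipid handling in mouse gastrocnemius, the large calf muscle: the nuclear receptor genes Ppara and Ppard, and Pdk4, Ucp3, Acot1, Acot2, Angptl4, Plin2 and Nceh1. They were chosen by gene symbol, as the rows whose probe set maps to one of them, and all 9 were found among 23185 genes with 1 symbol on the array. Levels were read on 12 Affymetrix arrays, 1 per animal, from 4 groups of 3 mice of the strain BKS.Cg-Dock7m +/+ Leprdb/J, which carries a mutant allele of the leptin receptor gene and is used as a model of obesity with diabetes. The labels do not give the zygosity of the animals. All mice were 12 weeks old and had received an adenovirus coding for a short hairpin RNA (shRNA) 1 week before the muscle was taken. The control group received 4e+09 plaque-forming units of control shRNA virus. The LCN13 group received 2e+09 of LCN13 shRNA virus with 2e+09 of control virus, and the TSC22D4 group 2e+09 of TSC22D4 shRNA virus with 2e+09 of control virus. The group given both, TSC22D4+LCN13, received 2e+09 of each and no control virus. Of 7 animals treated in each group, 3 were selected for arrays as representative, and the labels do not say by which measure. Each animal is called here by the number in its label.

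PPARα and PPARδ, the products of Ppara and Ppard, are nuclear receptors that bind fatty acids and their derivatives. As partners of the retinoid X receptors they bind DNA at direct repeats of AGGTCA with 1 base between, and raise transcription of genes for fatty acid uptake, oxidation and storage. In skeletal muscle this programme is known from fasting, exercise and a high supply of fatty acids, when Pdk4, Ucp3 and Angptl4 are among the genes that respond most.

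Because Pdk4, Ucp3, Acot2 and Plin2 are classical targets of these receptors on which the values below turn, the sequence before their start sites is shown. RefSeq promoters (GRCm38.p6, from 250 bases before to 50 after a start site of the gene) were matched by gene ID for 8 of the 9 genes, all but Angptl4. The sequences run 5′ to 3′ on the gene's strand, and end at the base before the first annotated base of the gene. The capitals mark the stretch closest to the direct repeat of AGGTCA with 1 base between, read on both strands with 12 letters compared. Ucp3 is at chr7:100472741-100472990 on the plus strand, Plin2 at chr4:86670218-86670309 on the minus strand, Acot2 at chr12:83987611-83987860 on the plus strand and Pdk4 at chr6:5496279-5496528 on the minus strand. For Plin2 only the 92 bases of the window that lie before the annotated gene are shown.
Ucp3: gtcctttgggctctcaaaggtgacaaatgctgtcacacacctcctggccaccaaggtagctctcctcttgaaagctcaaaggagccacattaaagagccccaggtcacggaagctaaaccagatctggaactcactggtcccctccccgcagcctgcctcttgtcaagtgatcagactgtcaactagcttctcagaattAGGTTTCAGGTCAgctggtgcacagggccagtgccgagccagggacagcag
Plin2: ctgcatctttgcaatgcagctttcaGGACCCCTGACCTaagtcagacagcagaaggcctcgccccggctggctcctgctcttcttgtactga
Acot2: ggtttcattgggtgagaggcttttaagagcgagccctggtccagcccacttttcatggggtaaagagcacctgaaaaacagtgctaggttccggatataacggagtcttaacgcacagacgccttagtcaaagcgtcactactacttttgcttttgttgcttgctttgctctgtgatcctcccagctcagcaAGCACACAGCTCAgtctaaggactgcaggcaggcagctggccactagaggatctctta
Pdk4: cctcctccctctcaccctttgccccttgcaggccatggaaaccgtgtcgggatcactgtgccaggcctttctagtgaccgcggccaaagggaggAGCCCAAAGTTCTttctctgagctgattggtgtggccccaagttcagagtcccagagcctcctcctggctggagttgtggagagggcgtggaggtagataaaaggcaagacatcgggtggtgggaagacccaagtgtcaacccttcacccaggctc
The closest stretch differed from the repeat at 2 of the 12 letters in Ucp3 and in Plin2, where in Plin2 it reads on the opposite strand. Among 32851 mouse promoters of the same length, 3.86% held a stretch with 2 or fewer mismatches. The closest stretch in Acot2 had 3 mismatches, and 24.6% of promoters held one at least as close. Pdk4, Nceh1, Acot1 and Ppara each had 4 mismatches at best, and Ppard 5. For Ppara the window lies inside the annotated gene and not before its first annotated base. The single element AGGTCA, on either strand, occurred in 16.3% of promoters. It was present 2 times in Ucp3, once inside the marked stretch, and in Plin2 inside the marked stretch, and in none of the other 6. These matches describe the letters of the window and were not tested for binding.

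The values are log2 levels, so that a difference of 1 is a doubling, and levels of different genes come from different probe sets and are not compared. The arrays shared a median of 5.45, and pairs of arrays correlated at 0.990 to 0.998 over all probe sets. The shRNA targets did not separate the groups in this muscle: Tsc22d4 was at 0.24 above control with TSC22D4 shRNA (SE 0.12, limma adjusted p = 0.619), and Obp2a, the symbol for Lcn13 on the array, was near the lowest levels measured in every group. Markers of muscle fibres were at mean levels alike in all 12 arrays, with a summed score (the mean deviation of the listed genes from their 12-array means) between -0.11 and 0.04. The control animals stood apart in interferon-induced genes, whose score was 1.03 to 1.49 in them and -0.63 to -0.28 in the other 9 animals. All comparisons with control use the same 3 control arrays. The part of the interferon difference in the values below was not tested. In bulk muscle a lower level can come from fewer cells of a type or from less RNA per cell, which cannot be told apart.

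**Figure D1:**
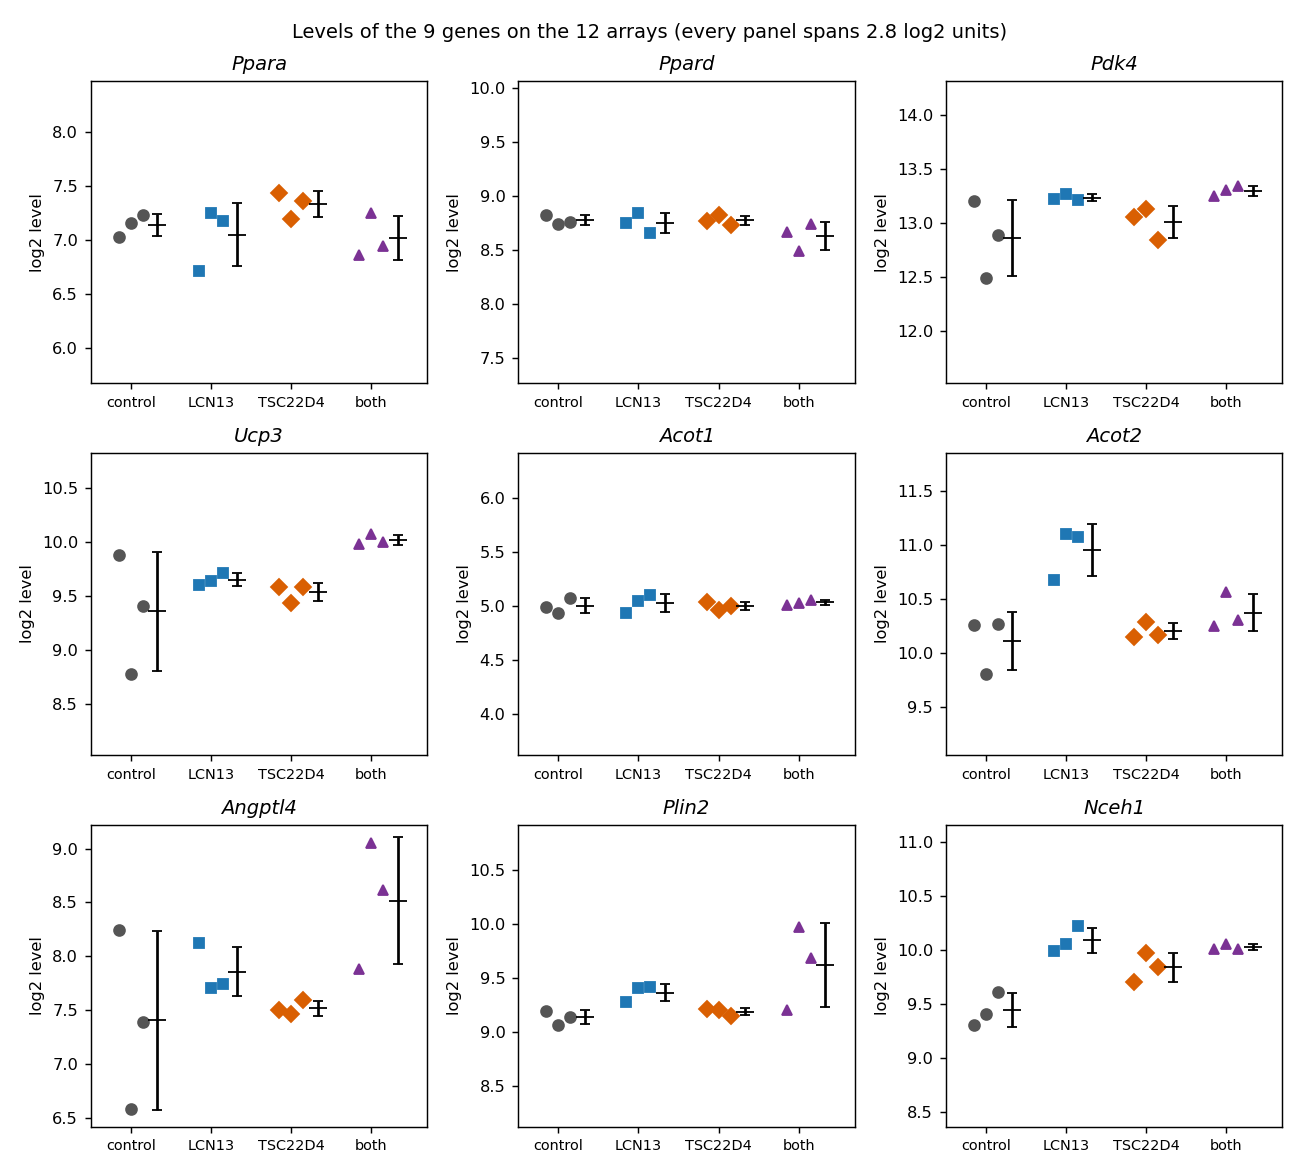
Log2 level of the 9 genes in each of the 12 animals (points), by shRNA group, with the mean and SD of 3 animals (bar and line); each panel has its own vertical axis. The LCN13 animals lie above all control animals for Acot2 and Nceh1. Control animal 19 is the lowest of all 12 for Pdk4, Ucp3, Acot1, Acot2, Angptl4 and Plin2.

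The receptor genes changed little. Ppara, which encodes the receptor most tied to fatty acid oxidation, was at 7.03, 7.15 and 7.23 in control animals, 6.71, 7.25 and 7.18 with LCN13 shRNA, 7.43, 7.19 and 7.35 with TSC22D4 shRNA and 6.86, 7.25 and 6.94 with both. The groups overlapped, and animal 21 of the LCN13 group was the lowest. The largest gap between groups, 0.31 between TSC22D4 alone and both, had a 95% interval from -0.63 to 0.02 for both minus TSC22D4. Ppard, which encodes the receptor most abundant in muscle among the PPARs, was at 8.82, 8.73 and 8.76 in control animals, 8.75, 8.84 and 8.65 with LCN13 shRNA, 8.76, 8.82 and 8.73 with TSC22D4 shRNA and 8.66, 8.49 and 8.74 with both. Animal 30, given both viruses, was the lowest, and the group means lay within 0.14 of each other. For Ppard the difference of both minus control was -0.14 (SE 0.066, adjusted p = 0.264).

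Pdk4 encodes the kinase that inactivates pyruvate dehydrogenase and so spares glucose when fatty acids are burned. Its levels were 13.20, 12.49 and 12.88 in control animals 18, 19 and 20, and 13.22, 13.27 and 13.21 with LCN13 shRNA. They were 13.06, 13.12 and 12.84 with TSC22D4 shRNA, and 13.25, 13.30 and 13.34 with both. All LCN13 animals and all animals given both lay above all control animals, by a narrow margin over animal 18, while the TSC22D4 animals overlapped control. The spread was wide in control (SD 0.35, n = 3) and narrow with LCN13 shRNA (SD 0.031) and with both (SD 0.045). The difference from control was 0.38 for LCN13 (SE 0.15, adjusted p = 0.311) and 0.44 for both (SE 0.15, adjusted p = 0.122), and neither passed the threshold of adjusted p = 0.05. Without control animal 18 the difference of both from control was 0.61 (adjusted p = 0.0342), and without control animal 19 it was 0.26.

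Ucp3 encodes a carrier of the inner mitochondrial membrane whose transcript follows fatty acid supply in muscle. Its levels were 9.88, 8.78 and 9.40 in control animals 18, 19 and 20, and 9.60, 9.63 and 9.71 with LCN13 shRNA. They were 9.58, 9.44 and 9.58 with TSC22D4 shRNA and 9.98, 10.07 and 9.998 with both. The 3 animals given both were higher than all other animals, LCN13 animals lay above TSC22D4 animals, and the control group spanned the range of both single shRNAs. The difference of both from control was 0.66 (SE 0.21, 95% interval 0.19 to 1.13, adjusted p = 0.111), a ratio of 1.58. It was 0.93 without control animal 18 (adjusted p = 0.0208) and 0.37 without control animal 19. For LCN13 against control the difference was 0.30 (SE 0.21, adjusted p = 0.667), and 0.0066 without control animal 19.

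Acot1 and Acot2 encode closely related thioesterases that split fatty acyl-CoA, in the cytosol and in mitochondria. Acot1 lay at 4.94 to 5.10 on all 12 arrays, near the lowest value of any probe set (4.78), and its group means differed by at most 0.037. No difference of Acot1 could be read at this level. Probe sets of such similar genes can bind each other's RNA, which was not tested. Acot2 was at 10.26, 9.80 and 10.27 in control animals, and at 10.67, 11.10 and 11.08 with LCN13 shRNA. It was at 10.15, 10.28 and 10.16 with TSC22D4 shRNA and at 10.25, 10.56 and 10.30 with both. The LCN13 animals were the 3 highest of all 12, and the other groups overlapped. Acot2 rose by 0.84 with LCN13 shRNA against control (SE 0.15, 95% interval 0.51 to 1.18, adjusted p = 0.0386), a ratio of 1.79. Against LCN13, Acot2 differed by -0.58 with both (SE 0.15, adjusted p = 0.0628) and by -0.75 with TSC22D4 shRNA (SE 0.15, adjusted p = 0.0765), so neither passed. The interaction, the effect of TSC22D4 shRNA with LCN13 shRNA minus that without it, was -0.67 for Acot2 (SE 0.21, adjusted p = 0.325). The call for LCN13 against control was lost in 10 of 12 fits that left out 1 animal (adjusted p up to 0.110, without animal 23), and kept without animal 21 (0.0336) and without animal 30 (0.0339). Hepatocyte markers were high in LCN13 animals 22 and 23 (scores 1.17 and 0.50) and in animal 30 (0.53), against -0.50 to 0.13 in the other 9. With that score as a covariate the difference of Acot2 was 0.71 (adjusted p = 0.0986).

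Angptl4 encodes a secreted inhibitor of lipoprotein lipase, the enzyme that frees fatty acids from circulating triglyceride. It varied more than any other of the 9 genes, with levels of 8.24, 6.59 and 7.39 in control animals 18, 19 and 20 and 8.12, 7.71 and 7.75 with LCN13 shRNA. It was at 7.50, 7.46 and 7.59 with TSC22D4 shRNA and at 7.89, 9.05 and 8.61 in animals 29, 30 and 32 given both. Control animals ranged from the lowest of all 12 to above every TSC22D4 animal, and every group overlapped control, whereas all animals given both were above all TSC22D4 animals. The difference of both from control was 1.11 (SE 0.39, 95% interval 0.24 to 1.98, adjusted p = 0.139), a ratio of 2.16. It was 0.70 without control animal 19 and 0.84 without animal 30. Both minus TSC22D4 was 1.00 (SE 0.39), where no gene of the array passed after adjustment.

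Plin2 encodes perilipin 2, the main coat protein of lipid droplets outside adipocytes. Its levels were 9.19, 9.07 and 9.14 in control animals and 9.27, 9.40 and 9.41 with LCN13 shRNA. They were 9.21, 9.20 and 9.15 with TSC22D4 shRNA, and 9.20, 9.97 and 9.69 in animals 29, 30 and 32 given both. All LCN13 animals lay above all control animals, and animals 30 and 32 were the highest while animal 29 was at the level of control. The difference of both from control was 0.49 (SE 0.15, 95% interval 0.15 to 0.82, adjusted p = 0.103), and for LCN13 it was 0.23 (SE 0.15, adjusted p = 0.632). The first was 0.69 without animal 29 (adjusted p = 0.00687) and 0.31 without animal 30.

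Animal 30, the highest for Angptl4 and Plin2, was also the highest in adipocyte markers (score 0.77, against -0.36 to 0.19 in the other 11 animals; 6 markers measured) and in macrophage markers (0.75, against -0.30 to 0.16; 5 markers). Animal 32, the next highest for Angptl4 and Plin2, had a score of -0.036 in adipocyte markers and 0.16 in macrophage markers. Of the macrophage markers, Mrc1 rose by 0.81 (limma adjusted p = 0.0200) and Adgre1 by 0.49 (adjusted p = 0.0405) with both shRNAs against control. The call of Mrc1 was kept in 9 of 12 fits without 1 animal and that of Adgre1 in 2 of 12. Both calls were lost with the compared groups fitted alone and with the tendon marker score as a covariate, and that of Mrc1 also with the red cell marker score. With the adipocyte score as a covariate the difference of both from control was 0.73 for Angptl4 and 0.35 for Plin2. With the macrophage score it was 0.30 for Angptl4 and 0.18 for Plin2. That score, added after seeing the data, did not overlap between control (-0.30 to -0.13) and both (0.13 to 0.75). In this fit score and group cannot be told apart.

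Nceh1, which encodes a membrane enzyme that hydrolyses cholesterol esters, showed the clearest difference. It was at 9.30, 9.41 and 9.61 in control animals, 9.99, 10.06 and 10.22 with LCN13 shRNA, 9.70, 9.97 and 9.84 with TSC22D4 shRNA and 10.01, 10.06 and 10.01 with both. The 9 animals given a target shRNA all lay above the 3 control animals. Nceh1 rose by 0.65 with LCN13 shRNA (SE 0.090, 95% interval 0.44 to 0.85, adjusted p = 0.0129), a ratio of 1.57. With both it rose by 0.58 (SE 0.090, 95% interval 0.38 to 0.78, adjusted p = 0.00958). With TSC22D4 shRNA alone the difference was 0.40 (SE 0.090, adjusted p = 0.140), which did not pass. The interaction was -0.46 (SE 0.13, adjusted p = 0.257). Nceh1 passed against control in all 12 fits without 1 animal, at 0.58 to 0.73 for LCN13 and 0.51 to 0.67 for both. The score of tendon markers was -0.95 and -1.06 in control animals 18 and 20 against -0.37 to 0.48 in the other 10 animals. With that score as a covariate Nceh1 differed by 0.64 (adjusted p = 0.290) for LCN13 and by 0.57 (adjusted p = 0.145) for both. When only the groups compared were fitted, the adjusted p was 0.0902 and 0.0571, so that the call was lost for both comparisons in each of these fits. Red cell markers were higher with both shRNAs than in control, Hbb-b1 by 1.87 (adjusted p = 0.0329) and Alas2 by 1.42 (adjusted p = 0.0480), with a score of 0.40 to 1.82 against -0.89 to -0.15. The call of Hbb-b1 was kept in 8 of 12 fits without 1 animal and that of Alas2 in 3 of 12. Both were lost with the groups alone and with the tendon score. For both against control the call of Nceh1 was also lost with the red cell score (0.68, adjusted p = 0.0982) and with the macrophage score (0.56, adjusted p = 0.106). Neither score overlapped between control and both, so that score and group cannot be told apart in these fits.

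**Figure D2:**
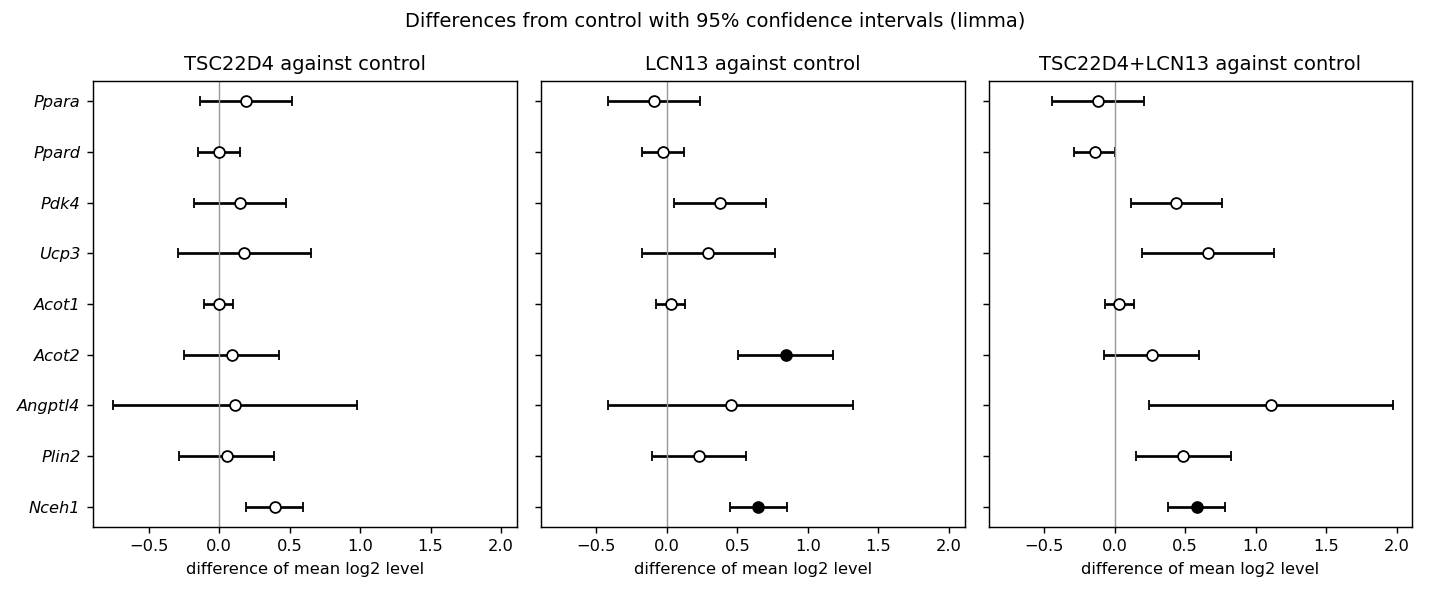
Difference in log2 level from control (points) with its 95% interval (lines) for the 9 genes in the 3 target shRNA groups, 3 animals each; filled points passed limma's adjusted p of 0.05. Nceh1 is filled for LCN13 and for both, Acot2 for LCN13 alone, and Angptl4 has the widest intervals.

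Set side by side, 6 of the 9 genes had their lowest mean in the control group, and 5 had their highest with both shRNAs. Acot1, whose differences could not be read, is among these 5. The order of group means was not counted over all genes, so these 2 counts describe the 9 alone. With LCN13 shRNA, 2 of 9 rose against control (Nceh1 and Acot2), where 0.237% of all genes rose and 0.612% fell. The 3 animals all lay above control for 4 of 9 (Pdk4, Acot2, Plin2 and Nceh1) and for 9.74% of all genes, and 3 of 9 had an unadjusted p below 0.05, as did 12.4% of all genes. The median difference of the 9 genes was 0.30, and 0.0014 over all genes. With both shRNAs, 1 of 9 rose (Nceh1), where 1.72% of all genes rose and 2.62% fell. All animals lay above control for 4 of 9 (Pdk4, Ucp3, Plin2 and Nceh1) and for 9.48% of all genes. An unadjusted p below 0.05 was found for 5 of 9, the 4 just named and Angptl4, and for 20.4% of all genes. The median difference was 0.44, against -0.0050 over all genes. With TSC22D4 shRNA alone none of the 9 passed against control in limma, where 0.336% of all genes did. Nceh1 was the 1 gene of 9 with an unadjusted p below 0.05, found for 9.26% of all genes, and the 1 gene with all animals above control, found for 7.8%. These 3 comparisons share their control animals and do not stand as separate evidence. The 9 genes were chosen with earlier results of these data known, so the shares here and below are a description and no test of the set. All of the 9 but Acot1 also varied more over the arrays than the median gene (SD 0.074).

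The comparisons between target shRNAs gave no member past the adjusted threshold. Both against TSC22D4 alone called 0% of all genes (0 genes, and 2434 or 10.5% at an unadjusted p below 0.05). There, 3 of 9 had an unadjusted p below 0.05, namely Angptl4, Plin2 and Ucp3, and 4 of 9 had all animals given both above all TSC22D4 animals (Pdk4, Ucp3, Angptl4 and Nceh1), as did 5.87% of all genes. Both against LCN13 alone called 4.21% of all genes (1.32% higher and 2.9% lower) and none of the 9, with 1 of 9 at an unadjusted p below 0.05 (Acot2) against 20.9% of all genes. Ucp3 was higher in every animal given both, as were 9.14% of all genes, and Acot2 lower in every one, as were 13.4%. TSC22D4 against LCN13 called 0.125% of all genes and none of the 9. Here 6 of 9 lay lower in every TSC22D4 animal than in every LCN13 animal (Pdk4, Ucp3, Acot2, Angptl4, Plin2 and Nceh1), as did 11.3% of all genes, and 2 of 9 (Acot2 and Nceh1) had an unadjusted p below 0.05 against 14% of all genes. The interaction called 0.125% of all genes and none of the 9, with 2 of 9 (Acot2 and Nceh1) at an unadjusted p below 0.05 against 9.57%. In the order of group means, no step between neighbouring groups passed for any of the 9 genes, the smallest adjusted p being 0.0628 for Acot2 between LCN13 and both.

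Over the 12 animals, 4 pairs among Pdk4, Ucp3, Angptl4 and Plin2 passed by both correlation measures. The permutations ran over all 12 animals, so the p-values take in differences between groups as well as between animals of a group. Pairs of other genes were not counted. Over the 36 pairs of the 9 genes, correlations of log2 level across the 12 animals had an adjusted p below 0.05 for 4 pairs by Pearson's r and for 10 by Spearman's rho, the 4 among them (permutation test, two-sided, Benjamini-Hochberg over the 36). Ucp3 and Angptl4 correlated at r = 0.90 and rho = 0.94 (permutation p = 8e-05 and 5e-05, adjusted 0.0029 and 0.0018). Pdk4 and Ucp3 correlated at r = 0.88 and rho = 0.86 (permutation p = 0.00022 and 0.00061, adjusted 0.0040 and 0.0073). Angptl4 and Plin2 had r = 0.82 and rho = 0.73 (permutation p = 0.00043 and 0.0084, adjusted 0.0052 and 0.033). Pdk4 and Angptl4 had r = 0.82 and rho = 0.83 (permutation p = 0.00085 and 0.0015, adjusted 0.0076 and 0.011). On deviations from the group means, r was 0.81, 0.85, 0.62 and 0.74 for these pairs in the same order, and no p-value was computed for it. Without the 2 animals farthest from the median of the first gene (19 and 30, 19 and 27, 19 and 30, and 19 and 27), it was 0.80, 0.77, 0.66 and 0.72. The correlation was lower without these animals. Among them is control animal 19, the lowest of all 12 for Pdk4, Ucp3, Acot1, Acot2, Angptl4 and Plin2. The other 6 pairs passed by rank alone, and bring in Acot2 and Nceh1. Pdk4 and Plin2 had rho = 0.87 (permutation p = 0.00040, adjusted 0.0072) and r = 0.63 (permutation p = 0.040, adjusted 0.14), and Plin2 and Nceh1 rho = 0.84 (permutation p = 0.0011, adjusted 0.0095) and r = 0.55 (permutation p = 0.057, adjusted 0.19). Acot2 and Nceh1 had rho = 0.78 (permutation p = 0.0039, adjusted 0.023) and r = 0.69 (permutation p = 0.013, adjusted 0.094). For Ucp3 and Plin2 rho was 0.76 (permutation p = 0.0064, adjusted 0.033) and r 0.65 (permutation p = 0.036, adjusted 0.14), for Pdk4 and Nceh1 0.74 (permutation p = 0.0077, adjusted 0.033) and 0.61 (permutation p = 0.032, adjusted 0.14), and for Acot2 and Plin2 0.71 (permutation p = 0.012, adjusted 0.043) and 0.43 (permutation p = 0.16, adjusted 0.36). On deviations from the group means, r of these 6 pairs was highest for Acot2 and Plin2 (0.57) and lowest for Pdk4 and Nceh1 (-0.14). It was 0.26 for Pdk4 and Plin2 and 0.24 for Ucp3 and Plin2. The receptor genes Ppara and Ppard and the dim Acot1 were in none of the pairs that passed.

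**Figure D3:**
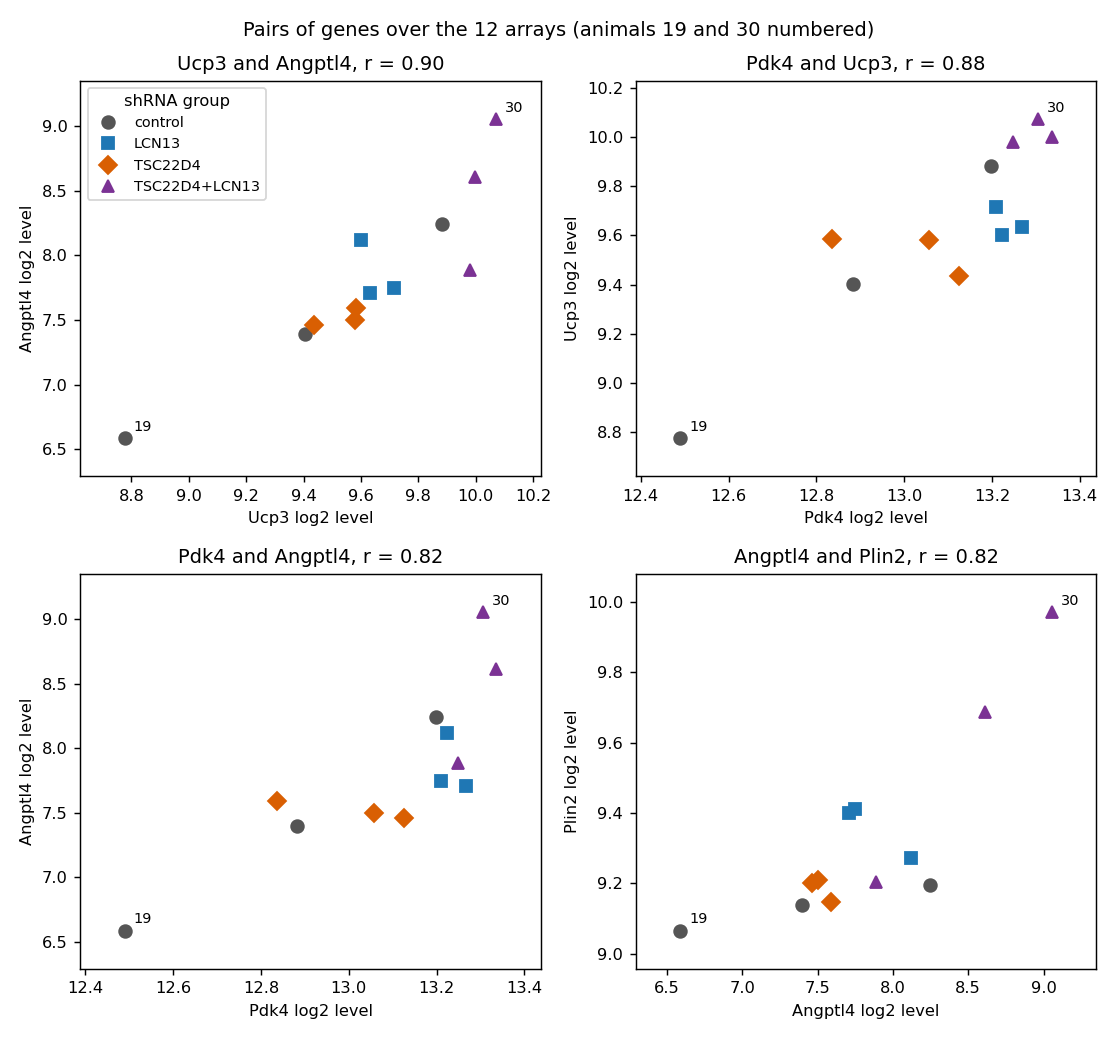
Log2 levels of 4 pairs of genes, 1 point per animal, coloured by shRNA group, with animals 19 and 30 numbered. Points rise together in each panel, with control animal 19 at the lower left and animal 30 at or near the upper right.

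Genes elsewhere on the array whose levels most resembled each of these were ranked by r over the 12 animals among 4114 named genes with an SD of at least 0.15. Nceh1 was nearest to Tppp3 (r = 0.96), Smim14 (0.89) and Lrrn1 (0.89). Acot2 was nearest to Slc25a42 (0.93), a mitochondrial carrier of coenzyme A, then to Reep3 (0.90) and Mir22hg (0.88). Plin2 was nearest to Dhrs3 (0.93), Slc16a7 (0.92) and Ehd2 (0.92), and Angptl4 to Scn7a (0.92), Hacd2 (0.91) and Ucp3. Pdk4 was nearest to Rnaseh2a (0.91), Ucp3 and Chrnb1 (0.87), and Ucp3 to Angptl4, Pdk4 and Rnaseh2a (0.87). Ppard was nearest to Rreb1 (0.90), Pdap1 (0.89) and Dnaaf5 (0.86), and Ppara to Aarsd1 (0.82), Zdhhc7 (0.81) and Rae1 (0.79). Acot1, whose differences could not be read, is left out. These correlations take in differences between groups. On deviations from the group means, r of the named genes ran from 0.46 (Acot2 and Reep3) to 0.90 (Plin2 and Slc16a7). For Nceh1 it was 0.73, 0.53 and 0.60 in the order given. These are the highest of many correlations over 12 arrays and are given as a description.

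Few other genes of the pathway passed the test. Of 28 further PPAR targets in fatty acid use that were measured, 1 rose with LCN13 shRNA and none fell, where 0.237% of all genes rose. It was Cd36, the fatty acid transporter, which rose by 0.30 (limma adjusted p = 0.0151). Of the 28, 24 had a difference above 0 and the median was 0.12. Of all genes 51.2% had a difference above 0, and their median was 0.0014. With both shRNAs 1 of the 28 rose, where 1.72% of all genes rose. This was Cpt1a, which encodes the gate enzyme for fatty acid entry into mitochondria. Cpt1a went from a mean of 7.61 in control to 8.55 (difference 0.93, SE 0.20, adjusted p = 0.0313). Of the 28, 16 had a difference above 0 with both, as did 46.6% of all genes. The median of the 28 was 0.016, against -0.0050 over all genes. Against LCN13 alone, 2 of 28 fell with both, where 2.9% of all genes fell. They were Mlycd, by 0.37 (limma adjusted p = 0.0114), and Acaa1a, by 0.38 (adjusted p = 0.0113). These genes act in malonyl-CoA breakdown and in peroxisomal fatty acid oxidation. None of the 28 passed with TSC22D4 shRNA against control, where 0.336% of all genes did. There 18 of the 28 had a difference above 0, as did 48.3% of all genes. The call of Cd36 was lost without animal 18, 21 or 23, and that of Cpt1a without animal 18, 19, 20, 30 or 32.

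Among 18 genes of the receptor machinery, none passed with LCN13 or TSC22D4 shRNA against control and 2 fell with both, where 2.62% of all genes fell. Rxra, which encodes a retinoid X receptor that partners the PPARs, fell by 0.33 (SE 0.065, adjusted p = 0.0242), and the coactivator gene Ncoa1 fell by 0.14 (adjusted p = 0.0475). The call of Rxra was lost without animal 18 or 20, and that of Ncoa1 was kept in 2 of 12 fits without 1 animal. Of 21 genes of lipid droplets and lipolysis none passed against control, and Plin3 was higher with both than with LCN13 alone by 0.68 (adjusted p = 0.0359). Among relatives of the 9 genes, Pdk3 rose with both by 0.25 (adjusted p = 0.00642) from a low level of 5.44 to 5.69. Angptl1, an angiopoietin-like gene, rose by 0.44 with LCN13 shRNA (adjusted p = 0.0296) and by 0.40 with both (adjusted p = 0.0197). None of 10 further acyl-CoA thioesterases passed in any comparison. The uncoupling protein relative Slc25a30 was higher with both than with LCN13 alone by 0.43 (adjusted p = 0.0323), and no gene of that list of 4 passed against control.

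With the compared groups fitted alone, none of the calls named for Cd36, Cpt1a, Mlycd, Acaa1a, Rxra, Ncoa1, Plin3, Pdk3, Angptl1 and Slc25a30 was kept. The calls against control were also lost with the tendon score, and those for both against control with the macrophage score. With the red cell score the calls of Cpt1a, Rxra, Ncoa1 and Angptl1 for both against control were lost, and that of Pdk3 was kept. The call of Cd36 was lost with the hepatocyte score (limma adjusted p = 0.0514). Against LCN13, Plin3 and Slc25a30 were lost with the macrophage and the hepatocyte score, while Mlycd and Acaa1a were kept with these 2 scores. For both against LCN13, where Hbb-b1 was higher by 1.98 and Alas2 by 1.57, no gene of the array passed with the red cell score or with the groups alone. The red cell score did not overlap between LCN13 (-0.83 to -0.63) and both (0.40 to 1.82). In that fit score and group cannot be told apart. Mlycd and Acaa1a passed in all 12 fits without 1 animal, Plin3 in 5 of 12 and Slc25a30 in 7 of 12. Pdk3 passed in all 12, and Angptl1 in 6 of 12 for LCN13 and 9 of 12 for both.

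**Figure D4:**
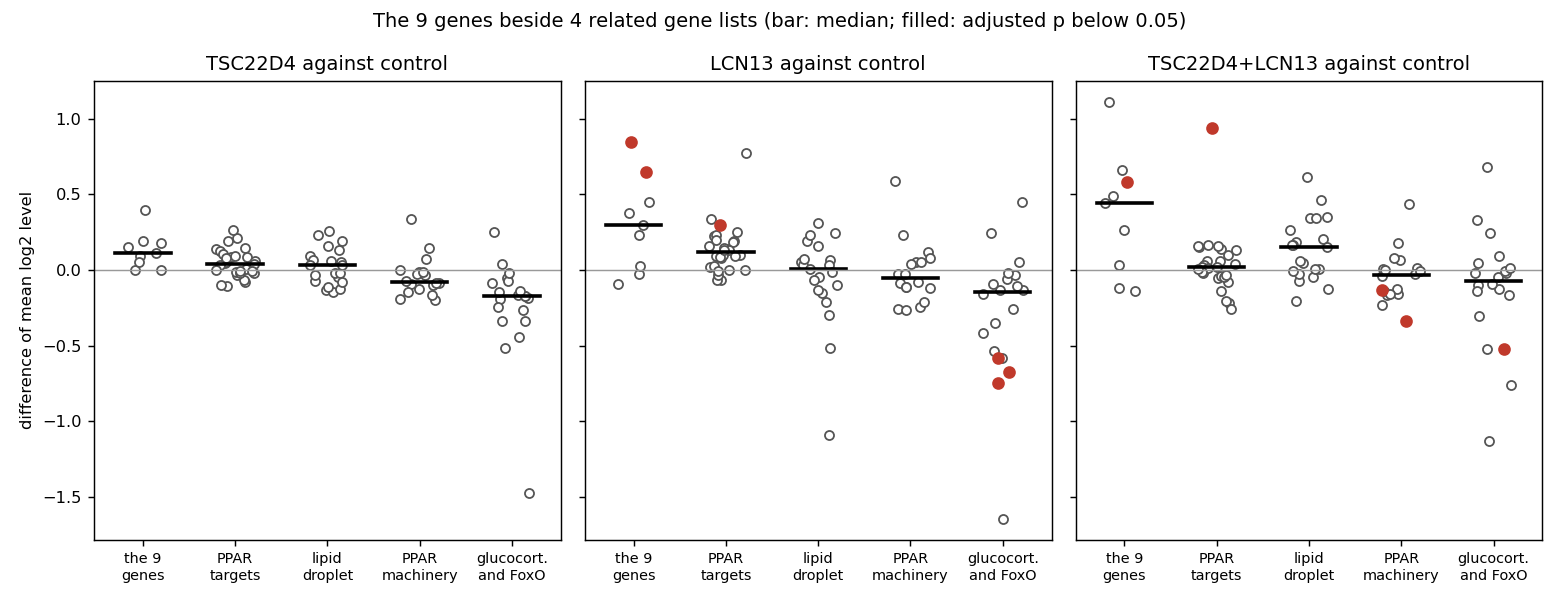
Difference in log2 level from control of the 9 genes and of the genes of 4 related lists (points, 1 per gene) in the 3 target shRNA groups; the bar is the median and filled red points passed limma's adjusted p of 0.05. The 9 genes have medians of 0.30 with LCN13 shRNA and 0.44 with both, and the 28 further PPAR targets 0.12 and 0.016.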

How the data were processed

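RNA of gastrocnemius from 12 mice was hybridised to Affymetrix arrays, 1 per animal. The authors deposited log2 levels made with RMA (background correction, quantile normalization and summary per probe set), per the submitters' processing notes, which name RMA; no version or probe definition is stated for it in the labels. Quantile normalization gives arrays the same distribution, and 11 of the 12 columns held the same sorted values, so a shift of all genes cannot be seen. Of 25206 probe sets, 23185 had 1 gene symbol in the platform annotation and were tested; 2021 (8.02%) were left out. The number of arrays limits the precision.

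Group means were fitted to all 12 arrays with limma 3.58.1 in R 4.3.3 (lmFit, eBayes, 8 residual degrees of freedom), with no covariate. In each of 7 comparisons (6 pairs of groups and the interaction) p-values were two-sided and adjusted by Benjamini-Hochberg over all 23185 genes, at a threshold of 0.05. The fit was tested on simulated data. Correlations used 100000 permutations (scipy 1.17.1).

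The 9 genes and 17 gene lists (186 genes, 167 measured) were chosen with earlier results of these data known. Genes named are the 9, list genes past the threshold (up to 6 a list), the shRNA targets and, except for Acot1, the 3 nearest genes by correlation. Lists with none are given by counts. The adipocyte marker Car3 rose by 0.13 with both against control (limma adjusted p = 0.0460), a call kept in 2 of 12 fits without 1 animal. Interferon-induced genes are not named. Of 11 measured, 10 fell against control with LCN13 shRNA, 8 with TSC22D4 shRNA and 9 with both, and 6 passed in the interaction. In the further lists, glucocorticoid and FoxO targets (20 measured) had 3 lower with LCN13 shRNA against control, and endothelial, brown adipocyte and muscle fibre lists were used as checks. Animals are replicates; animal numbers pair nothing. Alternatives were another gene filter, eBayes settings, array weights, fits of the compared groups alone, marker scores as covariates and leaving out each animal. The macrophage and red cell scores were added after seeing the data. These scores did not overlap between the animals given both and those of control or LCN13. The tendon score did not overlap between LCN13 and control. In these comparisons score and group cannot be told apart.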

Additional observations from a re-analysis of the deposited data

How the results depend on the processing

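The comparisons were repeated in 12 fits without 1 animal and under 12 other settings (11 for the interaction). Some of these could not change a sign. The gene filter, the eBayes settings and the fit of the compared groups alone leave a difference of group means as it was. So does leaving out an animal of neither compared group. Of 39 differences of the 9 genes that exceeded their standard error, 35 kept their sign throughout. The exceptions were Pdk4 for TSC22D4 against control, -0.035 to 0.32 without 1 animal and -0.032 with the red cell score; Ppard with the macrophage score, 0.016 for both against control and 0.012 for both against LCN13; and Plin2 for TSC22D4 against LCN13, 0.12 with the red cell score. The number of the 9 genes that passed for LCN13 against control, 2, became 0 with the groups alone or the tendon score, 1 with the hepatocyte, macrophage or red cell score, and 1 to 2 without 1 animal. For both against control, 1 became 0 with the groups alone and with the tendon, macrophage or red cell score, and 1 to 3 without 1 animal (3 without control animal 18, adding Pdk4 and Ucp3; 2 without animal 29, adding Plin2). For both against LCN13, 0 became 1 among genes above the median level, with trend and robust settings and with the adipocyte score (Acot2 each time), and 0 to 1 without 1 animal. For TSC22D4 against LCN13, 0 became 1 among genes above the median level and with array weights. The cause was not tested. Over all genes, counts without 1 animal ran from 36 to 105 for TSC22D4 against control (78 in the fit of all arrays), 77 to 280 for LCN13 (197) and 334 to 1106 for both (1007). They ran from 0 to 2 for both against TSC22D4 (0), 318 to 1320 for both against LCN13 (977), 0 to 198 for TSC22D4 against LCN13 (29) and 3 to 50 for the interaction (29). Under the other settings the same counts ran from 25 to 177, 18 to 340, 34 to 1128, 0 to 6, 0 to 1256, 0 to 422 and 2 to 51. No paired analysis was possible because animal numbers differ between the groups. Genes near the lowest signal, such as Acot1, carry no readable difference.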

Other observations

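In the same muscles, of 20 measured transcripts known to follow glucocorticoids and FoxO factors, 3 fell with LCN13 shRNA against control, where 0.612% of all genes fell, and none rose. Klf15, a transcription factor gene of amino acid and lipid use in muscle, fell by 0.68, from a mean of 7.64 to 6.97 (limma adjusted p = 0.0220). Trim63, which encodes the ubiquitin ligase MuRF1, fell by 0.75, from 10.85 to 10.10 (adjusted p = 0.0251), and Cebpd, a stress-responsive transcription factor gene, fell by 0.58 (adjusted p = 0.0276). With both shRNAs Klf15 fell by 0.52 against control (adjusted p = 0.0272), and Trim63 was higher than with LCN13 alone by 0.62 (adjusted p = 0.0261). All 5 calls were lost with the compared groups fitted alone. The 4 against control were lost with the tendon score, and that of Klf15 with both also with the red cell and macrophage scores. The call of Cebpd was also lost with the hepatocyte score (adjusted p = 0.0741). That of Trim63 against LCN13 was lost with the red cell score (adjusted p = 0.513) and the macrophage score (0.0525). Without 1 animal, the calls for LCN13 were kept in 9 of 12 fits for Klf15, 8 for Trim63 and 7 for Cebpd, and the others in 7 for Klf15 and 9 for Trim63. The comparisons with control share the animals used for the 9 genes.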
